A study of Mus musculus with 94 samples.

Results

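Single PV-ADSCs (mesenchymal stem cells of the perivascular adipose tissue) were divided here by *Pi16* into Pi16-positive and Pi16-negative stromal cells. The cells were chosen by 3 measured values. A cell was taken as stromal when its deposited value was at least 1000 for *Dcn* (decorin) and at least 100 for *Col3a1* (collagen type III), as Pi16-positive when its value for *Pi16* was also at least 100, and otherwise as Pi16-negative. Of the 85 cells in the deposited table, 58 were stromal, of which 39 were Pi16-positive and 19 were Pi16-negative, and the other 27 cells served as a comparison. The cells came from mice of strain c57/bl aged 8 weeks, from normal adipose tissue around the thoracic aorta that was digested with collagenase I, and were sorted as CD144-/CD45-/CD29+/Sca1+ cells without culture. Each cell gave its own SMARTseq v4 library. The series describes 94 cells of this single condition, and 9 of them were not analysed here. No animal is named for a cell, so all cells are 1 sample. The comparisons below therefore describe these cells, and no p value or standard error was computed between them.

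In many mouse tissues the outermost, adventitial layer around vessels and the fascia-like sheets of fat depots hold fibroblasts that express *Pi16*, *Dpp4*, *Cd55* and *Sema3c*. They are regarded as stromal progenitors that lie upstream of more specialized fibroblasts. In adipose tissue, such progenitors are distinguished from *Icam1*-expressing preadipocytes, which lie closer to capillaries and to the fat cell fate, and from F3-positive (CD142) stromal cells, which were described as regulators that restrain adipogenesis. *Pi16* encodes peptidase inhibitor 16, a secreted or membrane-attached protein of the CAP family, and its level is not a result here because it chose the cells.

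The promoters below are of *Pi16*, which set the groups, of 2 genes among the leading ones of Pi16-positive cells (*Fbn1* and *Sema3c*) and of 2 among those of Pi16-negative cells (*Steap4* and *Cxcl12*). They are shown because these genes lead the differences described below. Each runs 5′ to 3′ from 250 bases before to 50 bases after a gene's start, was taken from RefSeq (GRCm38.p6) and not from the reads, and has in capitals every match of GGGCGG (the GC box) or TATAAA (the TATA box) on either strand.
Pi16, chr17:29318632-29318931 (+ strand): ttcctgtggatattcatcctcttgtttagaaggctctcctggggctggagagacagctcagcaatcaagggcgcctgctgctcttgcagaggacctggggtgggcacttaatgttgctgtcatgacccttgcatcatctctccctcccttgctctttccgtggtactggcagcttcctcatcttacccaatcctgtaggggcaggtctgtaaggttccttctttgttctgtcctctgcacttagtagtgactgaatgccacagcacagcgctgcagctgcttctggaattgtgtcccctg
Fbn1, chr2:125506389-125506688 (- strand): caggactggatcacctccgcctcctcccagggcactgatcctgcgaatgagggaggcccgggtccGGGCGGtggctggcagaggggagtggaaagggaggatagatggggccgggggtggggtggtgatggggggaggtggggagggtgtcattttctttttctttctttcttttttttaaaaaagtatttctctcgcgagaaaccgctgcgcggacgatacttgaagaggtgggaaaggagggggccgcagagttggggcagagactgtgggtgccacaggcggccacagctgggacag
Sema3c, chr5:17574566-17574865 (+ strand): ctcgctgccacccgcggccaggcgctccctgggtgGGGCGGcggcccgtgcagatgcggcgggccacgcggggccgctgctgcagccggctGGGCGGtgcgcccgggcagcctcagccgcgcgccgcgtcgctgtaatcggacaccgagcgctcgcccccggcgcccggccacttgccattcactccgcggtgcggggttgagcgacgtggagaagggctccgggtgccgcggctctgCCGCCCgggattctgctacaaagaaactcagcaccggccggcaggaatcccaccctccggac
Steap4, chr5:7960222-7960521 (+ strand): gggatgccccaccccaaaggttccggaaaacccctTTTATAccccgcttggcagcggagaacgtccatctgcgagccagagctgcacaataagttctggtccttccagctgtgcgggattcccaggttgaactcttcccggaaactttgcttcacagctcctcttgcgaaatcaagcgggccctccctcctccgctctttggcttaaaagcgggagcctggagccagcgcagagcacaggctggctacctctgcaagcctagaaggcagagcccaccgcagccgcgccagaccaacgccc
Cxcl12, chr6:117168285-117168584 (+ strand): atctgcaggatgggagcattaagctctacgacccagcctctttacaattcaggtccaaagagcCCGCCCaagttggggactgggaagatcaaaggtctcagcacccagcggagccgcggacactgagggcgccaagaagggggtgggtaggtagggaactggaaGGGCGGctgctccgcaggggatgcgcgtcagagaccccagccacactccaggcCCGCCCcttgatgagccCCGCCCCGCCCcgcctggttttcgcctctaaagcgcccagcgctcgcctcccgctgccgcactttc
The *Pi16* window held neither motif. The GC box was found once in *Fbn1*, 3 times in *Sema3c* and 5 times in *Cxcl12*, where 2 matches overlap by 1 base, and the *Steap4* window held 1 TATA box instead. Over all 32851 promoters of the same length, 35.7% held a GC box and 13.6% a TATA box. Counted by gene, 10324 of the 27025 genes with such promoters held a GC box. Of the 8 matched genes among the 15 leading the higher side, 6 held a GC box, as did 4 of the 10 matched genes among the 15 leading the lower side. The KLF motif CCACACCC was searched because *Klf4* was among the genes that differed. Present in 3.56% of all promoters (1106 of 27025 genes), it was not found in the 8 matched leading genes of the higher side. The AP-1 motif TGANTCA (7.81% of all promoters, 2425 of 27025 genes) was not found there either. On the lower side each of these motifs was found in 1 of the 10 matched genes, and among the 22 matched progenitor markers the KLF motif was found in 1 and the AP-1 motif in 3. A match is a description of letters and not a binding site.

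The rule left a wide gap between the groups. Of the 19 Pi16-negative cells, 13 had *Pi16* at 0, and the highest of the other 6 had a value of 47.5. The Pi16-positive cells began at 483 and reached 29367, with a median of 3769.9. The lowest stromal cell had a *Dcn* value of 6521 and the lowest *Col3a1* value was 567, whereas the 27 other cells reached at most 269 and 87.2. Whole reads could be recovered from the table. They ranged from 1428530 to 4776510 per cell in Pi16-positive cells (median, 2989758) and from 1146945 to 4164295 in Pi16-negative cells (median, 2920222). The number of genes above 0 per cell was from 1182 to 4148 (median, 2812) and from 850 to 4028 (median, 2814). Mitochondrial genes took a median of 3.61% of the reads (range, 0.975% to 33.5%) in Pi16-positive cells and 2.90% (range, 0.950% to 19.9%) in Pi16-negative cells. Neither depth nor complexity parted the groups.

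**Figure D1:**
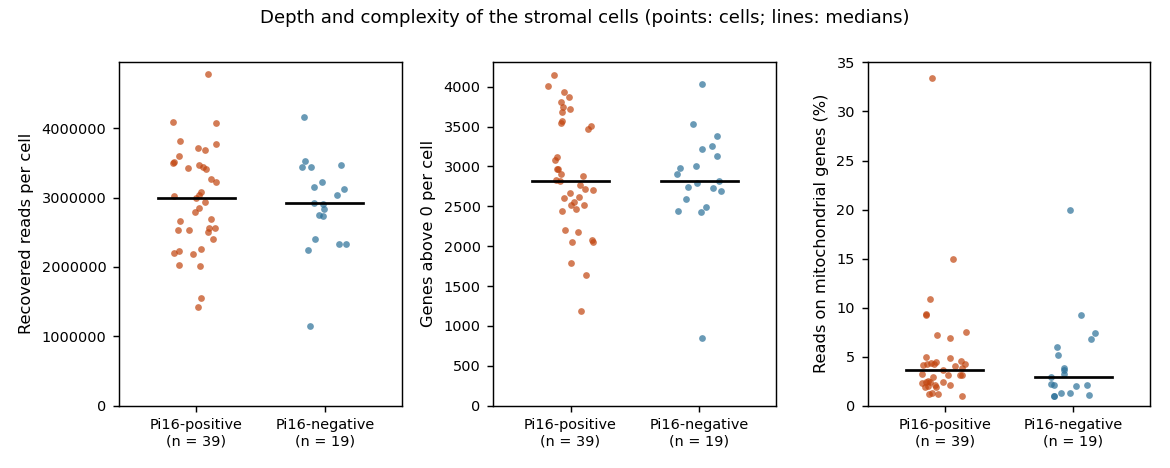
Recovered reads per cell (left), genes above 0 per cell (middle) and percent of reads on mitochondrial genes (right) in the 39 Pi16-positive and 19 Pi16-negative stromal cells, with points for cells and lines for medians. The medians of reads (2989758 and 2920222) and genes (2812 and 2814) lie close together, and 1 Pi16-negative cell with 1146945 reads and 850 genes lies below the others.

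Of the 58 cells, 49 had at least 4 of the 6 stromal check genes (*Col1a1*, *Col1a2*, *Lum*, *Pdgfra*, *Dpt* and *Serping1*) at a value of 100 or more. A total of 4 cells stood apart, by criteria set after the values were seen. The Pi16-negative cell with the fewest reads held only 69 recovered reads of *Dcn* and 6 of *Col3a1*, so it met the stromal rule through its scaling factors, and 0 of the 6 check genes reached 100 in it. In 2 other Pi16-negative cells, 7 and 8 of the 9 mesothelial list genes in the table reached 100, such as *Upk3b* at 6243 and 6130 and *Msln* at 623 and 2622, compared with at most 1 list gene in any other stromal cell. These 2 cells held 0 and 3 of the stromal check genes. In 1 Pi16-positive cell, 4 of 6 endothelial markers reached 100, with *Cldn5* at 6299 and *Cd36* at 9537. Without the 4 cells, 38 Pi16-positive and 16 Pi16-negative cells remained, and values without them are given where they matter.

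Markers of other cell types were read over their whole lists. The 20 endothelial markers summed to between 0 and 31249 per Pi16-positive cell (median, 56.7) and between 0 and 23110.4 per Pi16-negative cell (median, 26.3). In the 27 other cells the same sum had a median of 41916, far above the stromal medians. Of the 20 markers, 11 reached 100 in at least 1 Pi16-positive cell and 10 in at least 1 Pi16-negative cell. *Tie1* and *Erg* were at 0 in every stromal cell. The 9 of 14 mural and smooth muscle genes in the table summed to at most 3073 and 2422 (medians, 0 and 357). Of these 9, 4 reached 100 in a Pi16-positive cell and 6 in a Pi16-negative cell. The pericyte marker *Rgs5* was at 0 in every stromal cell. The 9 of 12 mesothelial genes summed to at most 3119.9 in Pi16-positive and 20483 in Pi16-negative cells. Of these 9, 2 reached 100 in a Pi16-positive cell and 8 in a Pi16-negative cell. *Msln* and *Upk3b* were at 0 in all Pi16-positive cells. All 6 of 19 immune genes in the table were at 0 in every Pi16-positive cell and summed to at most 6388 in a Pi16-negative cell, which was 1 of the 2 with mesothelial genes. The 5 of 12 Schwann and neural genes summed to at most 1949 and 1522. The part of such cells in the differences below was not tested beyond the values given without the 4 cells.

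Of the sort gate, *Ly6a*, which encodes Sca1, was at 100 or more in 36 of 39 Pi16-positive cells (92.3%, interval 79.1% to 98.4%) and 16 of 19 Pi16-negative cells (84.2%, interval 60.4% to 96.6%). *Itgb1*, which encodes CD29, reached 100 in 19 of 39 and 14 of 19 cells, and the difference of means was -2.37 (-1.89 without the 4 cells). Both groups thus carried Sca1 transcripts in most cells, and *Itgb1* was the lower one in Pi16-positive cells. *Cdh5*, which encodes the gated-out CD144, reached 100 in 1 of 39 and 0 of 19 cells, with a highest value of 103. These shares, like those below, are shares of cells at a deposited value of at least 100, and their exact Clopper-Pearson 95% intervals cover counting error only. As all cells are 1 sample, whether intervals overlap is no test between the groups.

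Differences were taken between the group means of log2(value + 1), Pi16-positive minus Pi16-negative, and a gene was called higher or lower at a difference of at least 2. Over the 5380 genes above 0 in at least 10 stromal cells, leaving out the 3 genes of the rule, 272 (5.06%) were higher and 209 (3.88%) lower in Pi16-positive cells, or 8.94% in either direction. Counted instead by the share of cells at 100 or more, with a difference of at least 25 percentage points, 158 genes (2.94%) were higher and 105 (1.95%) lower. The median of all differences was 0.07. With recovered reads scaled to 1 total per cell, 171 genes were higher and 123 lower, and with deposited values scaled likewise 164 were higher and 115 lower. Without the 4 cells, 246 genes were higher and 330 lower, and 208 higher and 190 lower genes were in both counts. A gene listed at 0 in a cell can be a missed transcript, so a difference mixes the share of cells that hold a gene with its level in them.

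Genes known to mark adventitial progenitors were compared next. Of the 38 listed markers, 32 were above 0 in at least 10 stromal cells. Of these, 17 reached 10 cells in the Pi16-positive group alone, 15 in each group and 0 in the Pi16-negative group alone. A marker that was measured only because of the group where it is high was prone to differ, as did *Uchl1* (above 0 in 17 Pi16-positive and 0 Pi16-negative cells), *Aldh1a3* (11 and 1), *Cd55* (18 and 2) and *Efhd1* (18 and 2). The Pi16-positive group, with 39 cells against 19, also reached 10 cells more easily. Among the 32, 28 were higher and 0 lower in Pi16-positive cells, and the median difference was 2.88, compared with 5.06% of all genes higher and an all-gene median of 0.07. Without the 4 cells, 25 were higher, 0 were lower and the median was 3.09. The list was drawn up with earlier results of these data known and its members passed through this filter, so its count and median describe it and support nothing. The 4 members between the thresholds were *Creb5* (1.91), *Cd9* (1.45), *Smpd3* (1.16) and *Arl4a* (0.15). The 6 members that did not reach 10 cells were *Bmp7* (9 Pi16-positive and 0 Pi16-negative cells above 0), *Stmn4* (7 and 0), *Wnt2* (5 and 0), *Nov* (4 and 0), *Dact2* (1 and 0) and *Sema3e* (1 and 1).

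For the label of the Pi16-positive cells as adventitial progenitor-like, 8 of the markers were read, *Dpp4*, *Cd55*, *Sema3c*, *Ly6c1*, *Cd248*, *Igfbp6*, *Mfap5* and *Anxa3*. These come from the same list and filter, so their counts describe the cells and do not test the label. Pi16-positive cells held between 0 and 8 of them at a value of 100 or more (median, 6), and Pi16-negative cells between 0 and 6 (median, 3). Surface proteins are described first. *Cd248* encodes endosialin, a stromal surface glycoprotein. In Pi16-positive cells the value of *Cd248* ran from 0 to 11221 with a median of 1333, and in Pi16-negative cells from 0 to 3005 with a median of 85.6. It was at 100 or more in 35 of 39 Pi16-positive cells (89.7%, interval 75.8% to 97.1%) and 9 of 19 Pi16-negative cells (47.4%, interval 24.4% to 71.1%), with means of 9.94 ± 2.63 against 4.94 ± 4.41. The ranges overlapped, but 8 Pi16-positive cells lay above every Pi16-negative cell, and 0 of the 27 other cells reached 100, which allows a share of up to 11.1%. Such limits, here and below, are 3 cells of the total and not the Clopper-Pearson bound.

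*Dpp4*, the dipeptidyl peptidase used to sort such progenitors, was held by a minority of the cells. Its values ran from 0 to 8697 (median, 0) in Pi16-positive cells and from 0 to 2517 (median, 0) in Pi16-negative cells, and it reached 100 in 14 of 39 Pi16-positive cells (35.9%, interval 21.2% to 52.8%) and 3 of 19 Pi16-negative cells (15.8%, interval 3.38% to 39.6%). Of the 3 Pi16-negative cells, 2 were those with mesothelial genes, and without the 4 cells it reached 100 in 14 of 38 and 1 of 16 cells. The intervals overlap, and the difference of means was 2.27 (3.22 without the 4 cells). All 14 Pi16-positive cells with *Dpp4* at 100 also had *Anxa3* at 100, and 10 of them had *Cd55*, the complement decay-accelerating factor. *Cd55* itself ran from 0 to 8559 (median, 0) in Pi16-positive cells and from 0 to 753 (median, 0) in Pi16-negative cells. A value of 100 was reached in 17 of 39 Pi16-positive cells (43.6%, interval 27.8% to 60.4%) and 2 of 19 Pi16-negative cells (10.5%, interval 1.301% to 33.1%), so that its intervals overlap slightly, and 11 Pi16-positive cells exceeded the highest Pi16-negative one. No Pi16-negative cell held *Dpp4* and *Cd55* together at 100 (0 of 19 cells, which allows a share of up to 15.8%).

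*Ackr3*, the scavenger receptor for CXCL12, ran from 0 to 27093 (median, 1599) in Pi16-positive cells and from 0 to 5353 (median, 0) in Pi16-negative cells, with a difference of 4.85. Values of 100 or more were found in 28 of 39 and 7 of 19 cells. *Axl*, a receptor tyrosine kinase for GAS6, reached 100 in 32 of 39 and 9 of 19 cells and had a difference of 4.73 (3.68 without the 4 cells). *Adgrd1*, an adhesion G protein-coupled receptor, had the values from 0 to 13897 (median, 478) in Pi16-positive cells and from 0 to 1206 (median, 0) in Pi16-negative cells, and 11 Pi16-positive cells lay above all Pi16-negative ones. *Ly6c1* reached 100 in 28 of 39 and 10 of 19 cells, but also in 23 of the 27 other cells, so it did not mark the stromal cells against them. Its difference was 2.60 (under the threshold without the 4 cells), and reads of near-identical *Ly6* genes may be counted with it.

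Intracellular, secreted and matrix markers follow. *Anxa3*, a calcium-dependent phospholipid-binding annexin counted with this list, had the greatest difference on the higher side. In Pi16-positive cells the value of *Anxa3* ran from 0 to 12099 with a median of 2094, and in Pi16-negative cells from 0 to 16854 with a median of 0. It was at 100 or more in 30 of 39 Pi16-positive cells (76.9%, interval 60.7% to 88.9%) and 5 of 19 Pi16-negative cells (26.3%, interval 9.15% to 51.2%), with means of 9.16 ± 4.67 against 3.26 ± 5.02, a difference of 5.90 (7.13 without the 4 cells). The highest single value was nonetheless in a Pi16-negative cell, 1 of the 2 with mesothelial genes, and without the 4 cells the highest Pi16-negative value was 4683. Among cells that reached 100 the medians were 3646 and 3332, so for *Anxa3* the groups differed mainly in the share of cells that held it.

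*Igfbp5*, an insulin-like growth factor binding protein, ran from 0 to 49205 (median, 1478) in Pi16-positive cells and from 0 to 2133 (median, 0) in Pi16-negative cells. 17 Pi16-positive cells were above the highest Pi16-negative cell, and among cells at 100 or more the medians were 7847 (25 cells) and 1037 (5 cells). Here share and level both differed. *Pcsk6*, a proprotein convertase that activates TGF-β family precursors, was held at 100 by 22 of 39 and 2 of 19 cells, and 17 Pi16-positive cells exceeded all Pi16-negative ones. *Sema3c*, a secreted guidance cue whose promoter is printed above, ran from 0 to 9990.0 (median, 368) in Pi16-positive cells and from 0 to 3097 (median, 0) in Pi16-negative cells. It reached 100 in 26 of 39 Pi16-positive cells (66.7%, interval 49.8% to 80.9%) and 3 of 19 Pi16-negative cells (15.8%, interval 3.38% to 39.6%) and in 0 of the 27 other cells. Its intervals did not overlap, which is no test between the groups. Both cells with mesothelial genes were again among the 3 Pi16-negative cells, and without the 4 cells 26 of 38 and 1 of 16 cells reached 100 and the difference moved from 4.69 to 5.78.

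*Mfap5*, a microfibril-associated glycoprotein, differed in level more than in presence. In Pi16-positive cells the value of *Mfap5* ran from 6.45 to 68652 with a median of 17799, and in Pi16-negative cells from 0 to 16194 with a median of 4356. At 100 or more in 38 of 39 and 17 of 19 cells, it was held by nearly all stromal cells, yet 21 of the 39 Pi16-positive cells lay above the highest Pi16-negative cell. *Igfbp6*, another growth factor binding protein, reached 100 in 35 of 39 and 13 of 19 cells with medians of 3868 and 1858. *Uchl1*, a deubiquitinating enzyme best known from neurons, was at 0 in all 19 Pi16-negative cells (0 of 19 cells, which allows a share of up to 15.8%) and reached 100 in 11 of 39 Pi16-positive cells (28.2%).

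**Figure D2:**
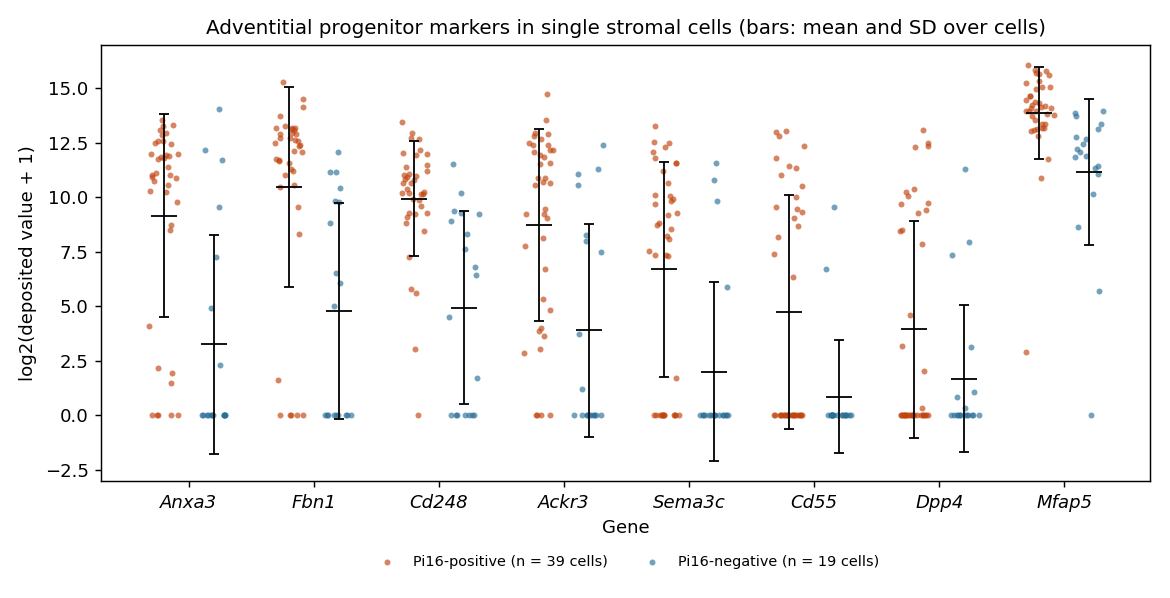
log2(deposited value + 1) of 7 adventitial progenitor markers and of *Fbn1*, a microfibril gene, in each of the 39 Pi16-positive (red) and 19 Pi16-negative (blue) cells, with bars for the mean and SD over cells. *Cd248* and *Fbn1* are at 100 or more in 35 and 33 Pi16-positive cells, *Dpp4* in 14, and *Mfap5* lies above the highest Pi16-negative cell in 21.

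Marker genes were also counted within each cell. Of the 32 progenitor markers, the Pi16-positive cells held between 8 and 30 at 100 or more (median, 22) and the Pi16-negative cells between 3 and 16 (median, 12). The ranges overlapped from 8 to 16 markers, and 29 of the 39 Pi16-positive cells lay above the highest Pi16-negative cell. The 27 other cells held a median of 2 and at most 7. By this count, Pi16-negative stromal cells lay between the other cells and most Pi16-positive cells, and 15 of the 19 held at least 10 of the markers. Of the 32 markers, 17 reached 10 cells in the Pi16-positive group alone, and the 27 other cells had no part in the filter. The order therefore describes these markers and supports nothing. A *Pi16* value under 100 did not mean that the other markers were absent.

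**Figure D3:**
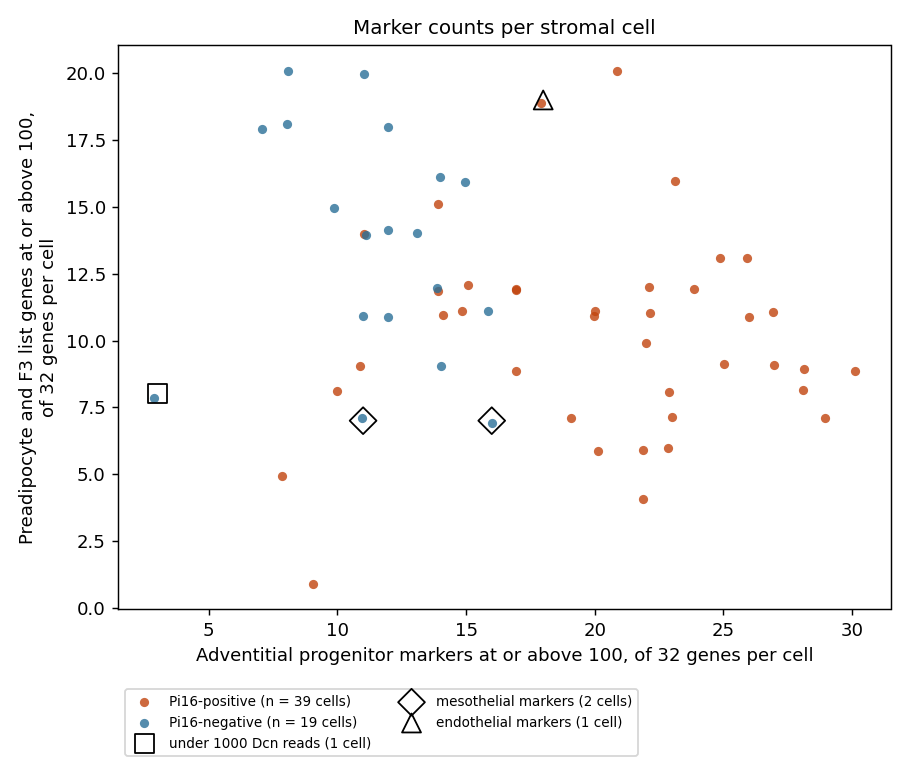
Number of the 32 progenitor markers (horizontal axis) and of the 32 measured genes of the preadipocyte and F3 lists (vertical axis) at a value of 100 or more, with 1 slightly displaced point per stromal cell (red, Pi16-positive; blue, Pi16-negative) and open symbols around the 4 cells that stood apart. 29 of 39 Pi16-positive cells lie to the right of the rightmost Pi16-negative cell at 16 markers, and vertically the groups overlap from 7 to 20 genes.

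The matrix genes gave a divided picture, and the fibrillar collagens that define fibroblasts hardly parted the groups. Of the fibrillar collagen and collagen processing genes, 3 of 27 measured members were higher and 0 lower (over all genes, 5.06% and 3.88%). The median difference was 0.82. *Col1a1* differed by 0.82 (38 of 39 and 17 of 19 cells at 100) and *Col1a2* by -0.66. Of the 27, 13 reached 10 cells in the Pi16-positive group alone and 0 in the Pi16-negative group alone. *Col12a1* and *Col8a1* were among the 13, at 0 in 17 and 16 of the 19 Pi16-negative cells. The count therefore describes the list and supports nothing. The 3 higher members were *Col14a1* (3.59), *Col12a1* (3.49) and *Col8a1* (2.02, and 1.72 without the 4 cells). Of these, *Col14a1* and *Col12a1* encode fibril-associated collagens, which coat fibrils and do not build them. *Col14a1* reached 100 in 36 of 39 Pi16-positive cells (92.3%, interval 79.1% to 98.4%) and 11 of 19 Pi16-negative cells (57.9%, interval 33.5% to 79.7%).

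The elastic fibre and microfibril genes leaned further to the Pi16-positive side. Set beside 5.06% of all genes higher and 3.88% lower, 6 of 16 measured members of that list were higher and 1 lower. The median difference was 1.17, and without the 4 cells 3 and 2 were higher and lower in the list. Of the 16, 4 reached 10 cells in the Pi16-positive group alone and 0 in the Pi16-negative group alone. *Fbn1*, which encodes fibrillin-1, the backbone of microfibrils, led it. In Pi16-positive cells the value of *Fbn1* ran from 0 to 40173 with a median of 5269, and in Pi16-negative cells from 0 to 4323 with a median of 31.6. It was at 100 or more in 33 of 39 Pi16-positive cells (84.6%, interval 69.5% to 94.1%) and 7 of 19 Pi16-negative cells (36.8%, interval 16.3% to 61.6%) and in 0 of the 27 other cells. Of the Pi16-positive cells 21 lay above all Pi16-negative ones, and among cells at 100 the medians were 6209 and 1362. *Emilin2* (3.26), *Mfap5* (2.69), *Mfap4* (2.59), *Ltbp1* (2.47) and *Fbln2* (2.43) were the other higher members, and *Fbln7* (-2.58) was the lower one. *Emilin2* and *Mfap5* are also on the progenitor list. Without the 4 cells *Mfap4*, *Ltbp1* and *Fbln2* lay under the threshold, at 1.97, 1.62 and 1.75.

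The lists of this paragraph stand beside 5.06% higher and 3.88% lower over all genes. Among proteoglycans and matricellular genes, 7 of 27 measured members were higher and 1 lower, with a median difference of -0.04. Without the 4 cells, 7 and 5 were higher and lower. Of the 27, 9 reached 10 cells in the Pi16-positive group alone and 0 in the Pi16-negative group alone. The leading members were *Aspn* (4.16), a small leucine-rich proteoglycan, *Thbs3* (4.10), a thrombospondin, and *Ctgf* (3.78), a matricellular target of YAP signaling. *Ctgf* reached 100 in 17 of 39 and 2 of 19 cells, and 13 Pi16-positive cells exceeded every Pi16-negative one. The lower member was *Thbs1* (-2.33), so 2 thrombospondins differed in opposite directions. *Lum*, which encodes lumican, differed by -0.23 over all cells and by -2.13 without the 4 cells. Of the basement membrane genes, 3 of 12 measured members were higher and 2 lower, with a median difference of 0.17. *Nid1*, *Lama4* and *Lamc1* were the higher members, and *Sparcl1* and *Col4a2* were the lower ones. Without the 4 cells 2 and 4 of this list were higher and lower, with a median of -0.51.

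Of the proteases and inhibitors, 10 of 31 measured members were higher and 2 lower, with a median difference of 0.29. Over all genes 5.06% were higher and 3.88% lower. Without the 4 cells 7 and 3 of the list were higher and lower, with a median of -0.07. Of the 31, 12 reached 10 cells in the Pi16-positive group alone and 0 in the Pi16-negative group alone. Beside *Pcsk6*, the leading members were *Pcsk5* (3.40), a related convertase, and *Adamts5* (3.32), an aggrecan-cleaving metalloproteinase. *Htra1* (-2.23) and *Ctsl* (-2.05) were the lower members.

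Over all genes 5.06% were higher and 3.88% lower, beside which each list of this paragraph is read. For the Wnt genes, 2 of 16 measured members were higher and 0 lower, with a median difference of 0.60. Of the 16 Wnt genes, 10 reached 10 cells in the Pi16-positive group alone and 0 in the Pi16-negative group alone. The higher ones were *Dact1* (3.33) and *Sfrp4* (2.58), both of which encode modulators of Wnt signaling and not ligands. In the TGF-β and BMP list, 5 of 24 measured members were higher and 1 lower, with a median difference of 0.21, but without the 4 cells only 1 was higher and 2 lower. *Tgfbr2*, the type II TGF-β receptor, was at 100 or more in 31 of 39 and 12 of 19 cells, and its difference of 2.03 was 1.32 without the 4 cells. Of the growth factor, IGF and PDGF genes, 4 of 22 measured members were higher and 0 lower, with a median difference of 0.59, led by *Igfbp5*, *Fgf2* (2.92) and *Angptl1* (2.66), and without the 4 cells 5 and 2 were higher and lower. *Pdgfra*, a general marker of fibroblasts, differed by 0.06, and *Pdgfrb* by -0.14. The values of *Pdgfra* ran from 0 to 7804 (median, 659) in Pi16-positive cells and from 0 to 4669.7 (median, 754) in Pi16-negative cells, and without the 4 cells its difference was -1.52. For the semaphorin and guidance genes, 2 of 10 measured members were higher and 0 lower, with a median difference of 1.04, with *Sema3d* (2.80) beside *Sema3c*. Through the Pi16-positive group alone, 8 of 24 TGF-β and BMP, 9 of 22 growth factor and 5 of 10 guidance genes passed the filter. *Dact1*, *Igfbp5* and *Sema3c* are also on the progenitor list. The counts of these lists therefore describe their members and support nothing.

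For the lists of this paragraph the background was again 5.06% higher and 3.88% lower over all genes. Among the transcription factors, 6 of 45 measured members were higher and 1 lower, with a median difference of 0.56. Of the 45, 20 reached 10 cells in the Pi16-positive group alone and 0 in the Pi16-negative group alone. The count therefore describes the list and supports nothing. *Klf4*, a Krüppel-like factor, ran from 0 to 18828 (median, 2545) in Pi16-positive cells and from 0 to 12691 (median, 699) in Pi16-negative cells. It was at 100 or more in 37 of 39 Pi16-positive cells (94.9%, interval 82.7% to 99.4%) and 11 of 19 Pi16-negative cells (57.9%, interval 33.5% to 79.7%), and the difference was 3.84 (2.94 without the 4 cells). Since *Klf4* also belongs to the genes that respond to tissue digestion, that list was read beside it. There 2 of 44 measured members were higher and 6 lower, with a median difference of -0.27, and *Jun*, *Fos* and *Egr1* differed by 0.49, -0.87 and -0.35. Without the 4 cells, 1 and 8 of that list were higher and lower. *Ebf2*, an early B cell factor used as a marker of adipose precursors, was higher by 3.55 and reached 100 in 20 of 39 and 4 of 19 cells. *Nr4a1* (-2.88) was the lower factor. *Vgll3*, a TEAD cofactor outside these lists, reached 100 in 21 of 39 and 2 of 19 cells. *Myc* differed by -0.49.

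Of the 5 measured cell cycle genes, 2 were higher and 0 lower, compared with 5.06% higher and 3.88% lower over all genes. All 5 reached 10 cells in the Pi16-positive group alone, so the count describes them and supports nothing. *Cdkn1c*, which encodes the cyclin-dependent kinase inhibitor p57, reached 100 in 23 of 39 Pi16-positive cells (58.97%, interval 42.1% to 74.4%) and 4 of 19 Pi16-negative cells (21.1%, interval 6.05% to 45.6%), and 19 Pi16-positive cells lay above the highest Pi16-negative cell at 227. The other higher gene was *Ccnd2* (2.20, and 1.64 without the 4 cells). The proliferation marker *Mki67* was at 0 in every stromal cell (0 of 39 and 0 of 19 cells, which allows shares of up to 7.69% and 15.8%). Outside the lists, *Hn1*, *Lrrn4cl*, *Kcnq1ot1* and *Marcks* were among the 15 leading genes. *Kcnq1ot1*, a long noncoding RNA of the imprinted domain that also holds *Cdkn1c*, reached 100 in 29 of 39 and 4 of 19 cells, but it is antisense to *Kcnq1*, and reads of the 2 cannot be told apart where counting ignores strand. *Marcks*, an actin-regulating substrate of protein kinase C, reached 100 in 33 of 39 and 9 of 19 cells, and 12 Pi16-positive cells exceeded all Pi16-negative cells. *Tek*, the angiopoietin receptor on the endothelial list, was at 0 in all 19 Pi16-negative cells (0 of 19 cells, which allows a share of up to 15.8%) and at 100 or more in 10 of 39 Pi16-positive cells. It was above 0 in 11 stromal cells, all of them Pi16-positive, so that passing the filter fixed its direction, and it reached 100 in 8 of the 27 other cells.

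Of the 15 genes leading the lower side, 7 are described first. *Steap4* encodes a metalloreductase that reduces iron and copper. In Pi16-positive cells the value of *Steap4* ran from 0 to 4354 with a median of 0, and in Pi16-negative cells from 0 to 12176 with a median of 1828. It reached 100 in 7 of 39 Pi16-positive cells (17.9%, interval 7.54% to 33.5%) and 13 of 19 Pi16-negative cells (68.4%, interval 43.4% to 87.4%) and in 0 of the 27 other cells. The intervals did not overlap, which is no test because the gene was picked for its large difference. Of the Pi16-negative cells, 6 lay above every Pi16-positive cell. The difference of -5.87 was -7.63 without the 4 cells.

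*Sparcl1*, a matricellular protein of vessel walls, ran from 0 to 7373 (median, 0) in Pi16-positive cells and from 0 to 9303 (median, 1187) in Pi16-negative cells. It reached 100 in 6 of 39 Pi16-positive cells (15.4%, interval 5.86% to 30.5%) and 12 of 19 Pi16-negative cells (63.2%, interval 38.4% to 83.7%). Its difference was -6.01, and *Apoe*, which encodes the lipid carrier apolipoprotein E, differed by -6.01. *Apoe* ran from 0 to 2906 (median, 0) in Pi16-positive cells and from 0 to 9522 (median, 880.3) in Pi16-negative cells, and it was at 0 in 29 Pi16-positive and 5 Pi16-negative cells. Neither gene is particular to stroma, since *Sparcl1* reached 100 in 17 and *Apoe* in 15 of the 27 other cells. Within the Pi16-negative group, all 12 cells with *Sparcl1* also had *Steap4* at 100, and 8 of them had *Apoe*.

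*Cp*, which encodes the copper-carrying ferroxidase ceruloplasmin, reached 100 in 4 of 39 and 10 of 19 cells and differed by -4.70 (-5.98 without the 4 cells). *Apod*, another lipid carrier, reached 100 in 5 of 39 and 10 of 19 cells. *Cxcl12*, the chemokine ligand of CXCR4 that the product of *Ackr3* removes, ran from 0 to 1640.3 (median, 0) in Pi16-positive cells and from 0 to 8074 (median, 93.8) in Pi16-negative cells. It was at 100 or more in 7 of 39 and 9 of 19 cells, and in 12 of the 27 other cells, and 7 Pi16-negative cells exceeded every Pi16-positive one. The ligand was thus lower and the scavenger receptor higher in the Pi16-positive cells.

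Counted per cell, Pi16-negative cells held a median of 5 of the 7 genes *Sparcl1*, *Apoe*, *Steap4*, *Cp*, *C2*, *Cxcl12* and *Apod* at 100 or more (range, 0 to 7), compared with a median of 1 (range, 0 to 5) in Pi16-positive cells. At least 3 of the 7 were present in 13 of 19 and 2 of 39 cells. These 7 genes were picked after their values were seen, so the count describes them and no more.

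The other 8 of the 15 follow. *Timm23*, *Slc25a5* and *Atp5a1* encode proteins of the inner mitochondrial membrane and the ATP synthase, with differences of -4.30, -4.10 and -4.10, and processed pseudogenes may share reads with *Slc25a5*. *Dnajb1*, a heat shock co-chaperone, reached 100 in 19 of 39 and 16 of 19 cells (-4.31). *Paip2*, *Gem*, *Nxf1* and *Phactr2* completed the 15, between -4.33 and -3.79. *Dnajb1* was the only 1 of these 8 genes on a list. In the dissociation response list *Dusp6* (-3.54) and *Hsp90aa1* (-3.10) were also lower. *Dusp6*, a phosphatase induced by ERK signaling, was at 100 in 0 of 39 Pi16-positive cells, which allows a share of up to 7.69%, and in 7 of 19 Pi16-negative cells.

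**Figure D4:**
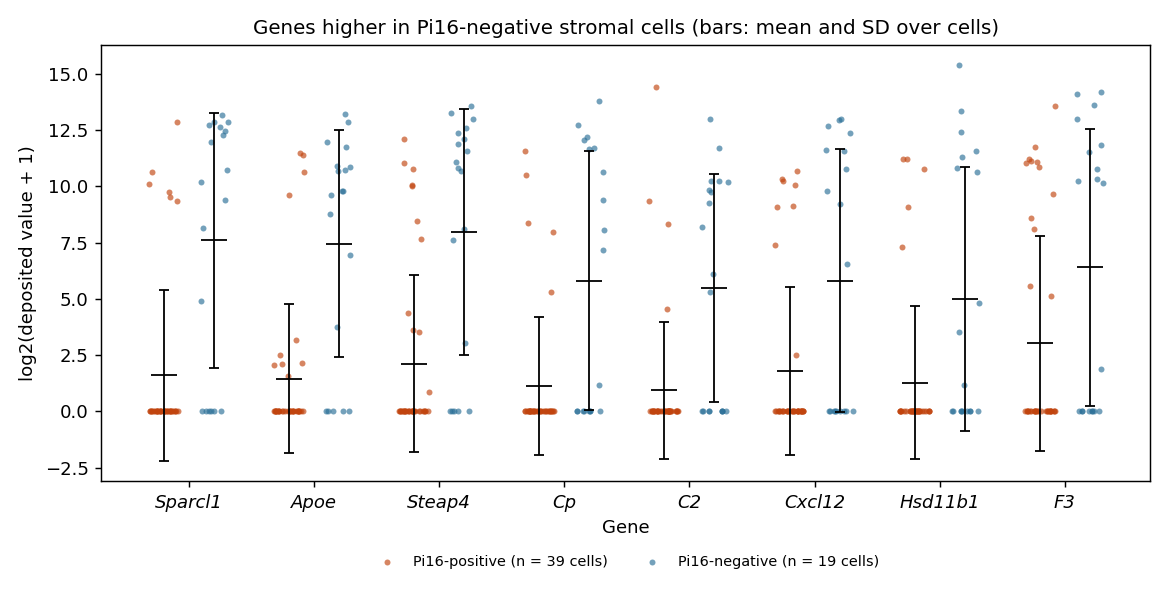
log2(deposited value + 1) of 8 genes that were lower in Pi16-positive cells, in each of the 39 Pi16-positive (red) and 19 Pi16-negative (blue) cells, with bars for the mean and SD over cells. *Steap4* is at 100 or more in 7 and 13 cells, *Apoe* in 4 and 13 and *F3* in 10 and 10, and each gene is at 0 in a part of both groups.

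The lists for committed preadipocytes and for F3 stromal cells both leaned to the Pi16-negative side. Both lists were drawn up with earlier results of these data known, so their counts and medians describe them and support nothing. Among preadipocyte and adipocyte genes, 2 of 19 measured members were higher and 7 lower, with a median difference of -1.62, compared with 3.88% of all genes lower and an all-gene median of 0.07. The lowest member was *Sparcl1* (-6.01), which also led the lower side over all genes. The 2 higher members were *Ebf2* and *Ebf1* (2.17). *Icam1*, the adhesion molecule used to define committed preadipocytes, reached 100 in 3 of 39 Pi16-positive cells (7.69%, interval 1.62% to 20.9%) and 7 of 19 Pi16-negative cells (36.8%, interval 16.3% to 61.6%), with a difference of -2.70. *Hsd11b1*, which reactivates glucocorticoids, reached 100 in 5 of 39 and 7 of 19 cells (-3.73), and *Plin2*, a lipid droplet coat protein, in 3 of 39 and 8 of 19 cells. *Pparg*, the master regulator of adipogenesis, was above 0 in 0 Pi16-positive and 2 Pi16-negative cells, and *Adipoq* in 0 and 1. *Fabp4* differed by -0.38 and reached 100 in 4 of 39 and 3 of 19 cells, compared with 25 of the 27 other cells. *Lpl*, which encodes lipoprotein lipase, was at 100 in 28 of 39 and 13 of 19 cells.

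In the F3 list, 1 of 13 measured members was higher and 5 lower, with a median difference of -1.15, compared with 5.06% higher and 3.88% lower over all genes. Leaving out the 4 cells, 1 and 5 were higher and lower, with a median of -1.87. *F3*, which encodes tissue factor (CD142), ran from 0 to 12086 (median, 0) in Pi16-positive cells and from 0 to 19084 (median, 1137) in Pi16-negative cells and reached 100 in 10 of 39 Pi16-positive cells (25.6%, interval 13.04% to 42.1%) and 10 of 19 Pi16-negative cells (52.6%, interval 28.9% to 75.6%). Its intervals overlap, and the difference of -3.38 was -4.50 without the 4 cells. *Fmo2* (-2.79), *Clec11a* (-2.45), *Gdf10* (-2.36) and *Gas6* (-2.02, and -1.27 without the 4 cells) were the other lower members. *Gdf10*, a BMP-like ligand, reached 100 in 10 of 39 and 8 of 19 cells. The one higher member was *Cilp* (2.65), a secreted cartilage matrix protein. *F3* and *Icam1* did not divide the Pi16-negative cells in full, since 4 cells held both at 100, 6 only *F3*, 3 only *Icam1* and 6 neither.

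Of the 32 measured genes of both lists together, Pi16-positive cells held between 1 and 20 at 100 or more (median, 11) and Pi16-negative cells between 7 and 20 (median, 14). The ranges overlapped over nearly their whole width. The Pi16-positive group alone brought 4 of 19 preadipocyte and 3 of 13 F3 genes through the filter, but 17 of 32 progenitor markers. Because the lists passed the filter differently, their separations cannot be compared. Across the 19 Pi16-negative cells, the number of progenitor markers and the number of preadipocyte and F3 genes had a Spearman rho of -0.32, and across the 39 Pi16-positive cells of -0.07.

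Of the chemokines, cytokines and receptors, 2 of 19 measured members were higher and 8 lower, with a median difference of -1.82, compared with 5.06% higher and 3.88% lower over all genes. Leaving out the 4 cells, 2 and 8 were higher and lower, with a median of -1.66. Besides *Cxcl12*, the lower members included *Il1r1* (-3.02), the receptor for interleukin 1, which reached 100 in 7 of 39 and 9 of 19 cells, and *Il11ra1* (-2.91), a receptor chain for interleukin 11. *Il11ra1* was held at 100 by all 19 Pi16-negative cells and by 28 of 39 Pi16-positive cells, although its near-identical copy *Il11ra2* can share its reads. The higher members were *Ackr3* and *Il33* (2.62), an alarmin of stromal cells, which reached 100 in 24 of 39 and 8 of 19 cells. *Vcam1*, an adhesion molecule for leukocytes, reached 100 in 2 of 39 Pi16-positive cells (5.13%, interval 0.627% to 17.3%) and 7 of 19 Pi16-negative cells (36.8%, interval 16.3% to 61.6%).

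Of the complement and coagulation genes, 2 of 18 measured members were higher and 3 lower (over all genes, 5.06% and 3.88%). The median difference was 0.14, and without the 4 cells 3 and 4 were higher and lower, with a median of -0.45. *C2* (-4.53) and *Cfb* (-3.35), which encode the paired proteases of the classical and alternative C3 convertases, were lower with *F3*. *C2* reached 100 in 3 of 39 Pi16-positive cells (7.69%, interval 1.62% to 20.9%) and 9 of 19 Pi16-negative cells (47.4%, interval 24.4% to 71.1%), although the highest value of all, 22271, was in a Pi16-positive cell. *Cd55*, which dissociates these convertases, and *Procr* (2.38), the endothelial protein C receptor, were higher. *C3* itself differed by -0.65 and was at 100 in 35 of 39 and 18 of 19 cells.

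The remaining lists are also set beside 5.06% higher and 3.88% lower over all genes. Of the mesenchymal stem cell surface markers, 0 of 11 measured members were higher and 2 lower, with a median difference of 0.13 (-0.64 without the 4 cells). The lower ones were *Vcam1* and *Itgb1* (of these, *Vcam1* alone without the 4 cells), and *Cd34* (0.64), *Cd44* (-0.60) and *Thy1* (0.32) lay between the thresholds. Among antioxidant and detoxification genes, 3 of 30 measured members were higher and 3 lower, with a median difference of -0.48, and without the 4 cells 2 and 8 were higher and lower, with a median of -1.33. *Gstt1* (-3.23) was the lowest of them. Of the annexin, S100 and cytoskeleton genes, 3 of 47 measured members were higher and 2 lower, with a median difference of 0.23, and the other 42 lay between the thresholds. *Vim*, which encodes vimentin, differed by -0.57 and reached 100 in 36 of 39 and 18 of 19 cells. *Wt1*, which is on the mesothelial list but is also expressed by adipose progenitors, reached 100 in 14 of 39 and 3 of 19 cells, with a difference of 1.27 that was 2.20 without the 4 cells.

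**Figure D5:**
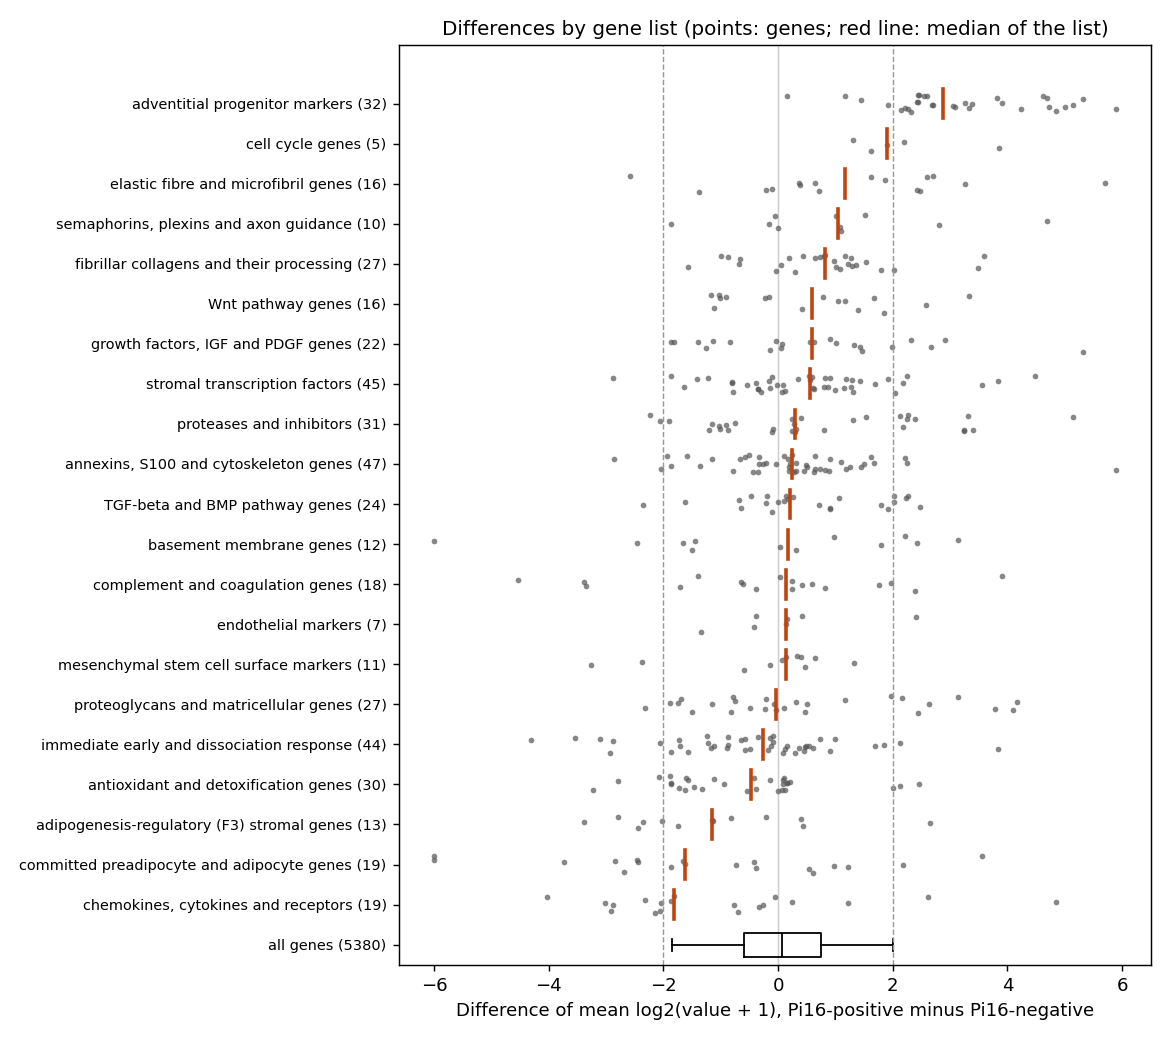
Difference of mean log2(value + 1), Pi16-positive minus Pi16-negative, for each measured gene of the lists with at least 5 measured members (points) and the median of each list (red line), with dashed lines at -2 and 2. The box at the bottom gives the quartiles, and its whiskers the 5 and 95 percentiles, of all 5380 genes (median, 0.07). The progenitor list has a median of 2.88 and the chemokine list of -1.82.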

How the data were processed

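Single PV-ADSCs were profiled with full-length SMARTseq v4 libraries, 1 per cell. Per the study's methods and the submitters' processing notes, the authors assessed read quality (FastQC), aligned reads to mm9 (HISAT2 2.0.5), sorted and assembled the alignments (SAMtools 1.4, StringTie 1.3.3), kept cells with over 800000 aligned reads, and applied the default scaling of scater. The counting program is not given in the sources used here. The authors deposited 1 table of 85 cells and 16069 genes, whose unit is a signal of normalized read counts. For 6127 genes, those with values above 0 in 10 or more cells, 13 groups of genes were multiplied by a factor of their own in each cell (from 0.0157 to 94.5). All 165973 values above 0 in these genes were whole multiples within a relative tolerance of 2e-09, which gave recovered reads. On simulated factors for 6127 genes, 100% were recovered. In 20 of 1190 pairs of a cell and a group there were fewer than 10 values, so that these factors are less certain. Sums over groups with such factors weigh genes unevenly, so reads scaled to 1 total per cell and thinned reads were tried as alternatives.

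Means, SDs and differences are of log2(value + 1) over cells, and 145 genes met the naming rule or were named after their values were seen. The rule took up to 3 members of each list at either end, the 15 genes with the largest and smallest differences, and fixed genes of the sort gate and the study, and 1 gene that met it is not reported here. The members, lists and thresholds were chosen with earlier results of these data known. No doublet caller was run, because cells were sorted singly. Promoters were matched by symbol to RefSeq (GRCm38.p6). Of the 15 leading genes, 8 on the higher and 10 on the lower side had an entry. Python 3.11.15, numpy 2.4.6, pandas 2.3.3, scipy 1.17.1 and matplotlib 3.10.9 were used.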

Additional observations from a re-analysis of the deposited data

Results flagged for a closer look

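*Pi16* was also above 0 in 7 of the 27 cells outside the stromal rule. The highest of them had a value of 77.6 (68 recovered reads), and 0 of 27 cells reached 100, which allows a share of up to 11.1%.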

How the results depend on the processing

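In 19 alternatives, of which the rule on recovered reads and the leaving out of the 2 mesothelial or of all 4 cells were chosen after seeing the data, between 16 and 31 progenitor markers were higher and 0 lower. Of 1632 values of the 91 named genes past the difference, 1630 kept their direction. The alternative by share of cells at 100 was left out of this count of values. The exceptions were *Id2* (-0.092 with a *Pi16* threshold of 1000) and *Clec11a* (0.15 with any *Pi16* above 0), and the cause was not tested. This count is no test of the directions. The alternatives reuse the same cells, and the genes were picked for large differences. Alternatives that changed only the threshold of the difference or the filter of genes left each difference as it was. Of all genes, 74 were higher and 49 lower with a pseudocount of 10, 164 and 115 with deposited values scaled to 1 total per cell, 171 and 123 with recovered reads scaled likewise, and 180 and 130 after thinning each cell to 1146945 reads. With a difference of at least 1 there were 1005 and 835, with at least 3 there were 70 and 49, and with a share of cells at 100 differing by 25 points there were 158 and 105. Without all 4 cells, 330 were lower. Progenitor markers higher were 17 with a pseudocount of 10, 16 with a difference of 3 and 17 by share. Genes of the other lists (46 higher and 37 lower) were 17 and 15 with a pseudocount of 10, 102 and 94 with a difference of 1, 15 and 13 with a difference of 3, and 20 and 18 by share, and with values scaled to 1 total 29 were higher. No paired analysis was possible because all cells are 1 sample and no test was made. Of the 272 higher and 209 lower genes, 171 and 122 were also called with scaled reads. Low values, factors resting on few values and 1 sample limit every difference.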
